A study of Mus musculus with 8 samples.

Results

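The genes described here encode the nuclear part of the mitochondrial electron transport chain and of ATP synthase, measured by RNA sequencing in whole skin of 8 mice. They were selected by name among protein-coding genes: every nuclear gene whose symbol starts with Nduf, Sdh, Uqcr, Cox4, Cox5, Cox6, Cox7, Cox8 or Atp5 was taken, and kept where each library held at least 10 counts. The names gave 95 of 22740 listed genes, of which 92 were kept. The 3 genes left out were Atp5l-ps1, with 1 to 7 counts per library, and Cox7b2 and Cox8c, each with 0 counts in all 8 libraries, which allows a level of up to 0.138 to 0.169 CPM (reads of a gene scaled to a common library size) depending on the library. The kept gene nearest to the limit was Cox4i2, with 22 to 54 counts. By name, 45 genes belonged to complex I, 6 to complex II, 8 to complex III, 16 to complex IV and 17 to complex V. Structural subunits made up 73 of them, 9 were assembly factors named Ndufaf or Sdhaf, and 5 were tissue isoforms of complex IV. The other 5 were Ndufa4, which despite its name is a subunit of complex IV, its paralog Ndufa4l2, the supercomplex factor Cox7a2l, and Atp5s and Atp5sl, which take the name of ATP synthase without being core subunits of it.

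All mice were female BALB/c animals aged 6 to 8 weeks and kept on a low-fibre diet. Butyrate mice had sodium butyrate in their drinking water at 400 mM, from 2 weeks ahead of allergen exposure until the end, and CTL mice received vehicle. Lesional skin had been exposed to house dust mite (HDM) allergens, 4 doses of 15 μg in the course of 2 weeks, and baseline skin had not. The 4 groups held 2 mice each with 1 library per mouse, namely baseline CTL (replicates 1 and 2), baseline butyrate (replicates 1 and 3), lesional CTL (replicates 4 and 5) and lesional butyrate (replicates 3 and 4), and values per library are given in this order throughout. The allergen was applied to shaved skin under an occlusive dressing. Whether the baseline skin sequenced here had a dressing is not given. The first number in the labels of baseline mice differs from that of lesional mice, and baseline skin was taken when butyrate treatment ended. HDM exposure, the shaving and dressing that went with it, the set of mice and the time of collection therefore cannot be told apart. In whole skin, fewer cells of a type and less RNA per cell cannot be told apart either.

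Complexes I and II pass electrons from NADH and succinate to ubiquinone, complex III hands them on to cytochrome c, and complex IV reduces oxygen to water. Complexes I, III and IV pump protons across the inner mitochondrial membrane in doing so, and complex V, the ATP synthase, uses the gradient to make ATP. Most subunits are nuclear genes, whereas the catalytic cores of complexes I, III and IV and parts of complex V are encoded by the mitochondrial genome, and several complex IV subunits come in a widely expressed form and a heart and skeletal muscle form. In mouse skin these transcripts come from keratinocytes, from dermal cells and from the striated muscle layer that lies under the dermis.

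The libraries held 18004136 to 21085544 counts. The skin labels were met by basal keratinocyte markers, with Krt5 at 3797 to 5945 CPM. Baseline butyrate replicate 3 stood apart from the other 7 libraries. Its hair follicle keratins summed to 13690 CPM against 2.78 to 6.01 CPM elsewhere, and its 21 skeletal muscle markers to 15780 CPM against 71860 CPM in the other mouse of its group. Between the mice of a group, the 92 genes differed by a median of 0.0741 log2 units in baseline CTL, 0.325 in baseline butyrate, 0.0802 in lesional CTL and 0.117 in lesional butyrate skin, while all 15163 tested genes differed by a median of 0.147, 0.551, 0.125 and 0.228. In baseline butyrate skin, 4 of the 92 genes differed more than 2-fold between the mice, namely Cox6a2, Cox7a1, Cox8b and Ndufa4l2. Counts of called genes among the 92 and the differences that this library moves most are therefore given with and without it.

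The nuclear respiratory chain genes were abundant transcripts in skin. Together they took 1.02% to 1.21% of all counts per library, and the 13 mitochondrially encoded subunits took 4.78% to 7.37%. On a scale of CPM per kilobase of transcript, the median of the 92 genes over 8 libraries was 103 against 8.97 for all tested genes with a known length. The median was 74.2 for complex I, 69.9 for complex II, 174 for complex III, 165 for complex IV and 164 for complex V. Atp5b, the catalytic beta subunit of ATP synthase, had the highest level of all at 658 CPM per kilobase.

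Within each complex the levels per kilobase spanned a wide range. Under the name of complex I they ran from 5.51 for the assembly factor Ndufaf6 to 323 for Ndufa4, with 6.32 to 189 (Ndufb4 and Ndufb9) among its structural subunits. Complex II ran from 6.798 for the assembly factor Sdhaf1 to 139 for the iron-sulfur subunit Sdhb. The hinge protein Uqcrh was highest in complex III at 403 and Uqcrq lowest at 71.7. In complex IV, Cox6b1 reached 385 and Cox4i2 2.38. In complex V, the c-ring gene Atp5g1 stood at 3.59, computed over a principal transcript of 4715 bases, while Atp5g3, which encodes the same mature c subunit, stood at 350.

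Several subunits share sequence with other genes. All 50-base windows of each transcript were compared with all other annotated transcripts, and 87.4% of those of Atp5g2, 84.8% of Atp5l and 53% of Cox7c occurred elsewhere. Their levels were 4.12, 10.9 and 20.9 CPM per kilobase. Shares of 50.3% in Atp5o, 47.9% in Atp5h and 43.4% in Uqcrb were paired with levels of 247, 123 and 214. Counts of these genes are uncertain, and the part of shared sequence in their levels was not tested.

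**Figure D1:**
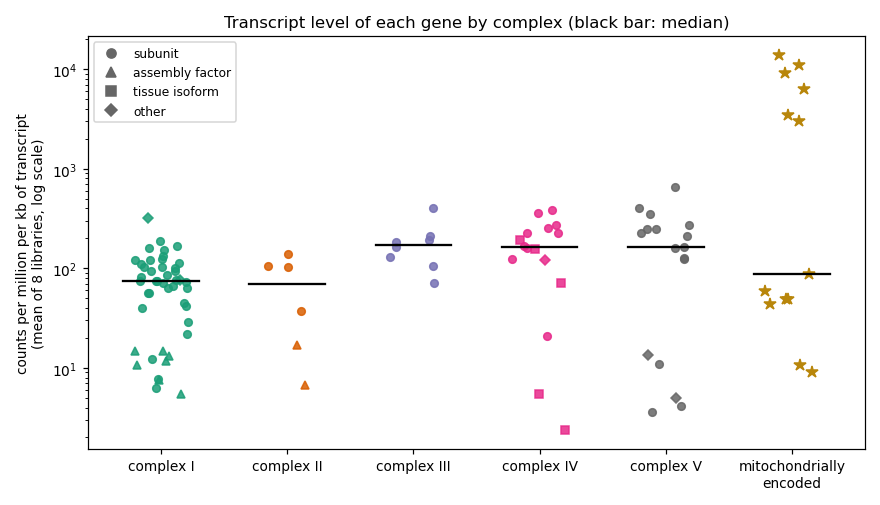
Each point is 1 gene, placed by its complex (x axis) and its mean level over 8 libraries in CPM per kilobase of transcript (y axis, log scale), with marker shapes for subunits, assembly factors, tissue isoforms and other genes, and black bars at the medians. Medians of the 5 complexes lie between 69.9 and 174, while the 13 mitochondrially encoded genes fall into a high group up to 13940 and a low group of 9.01 to 87.9.

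The 5 complexes varied little between libraries. As a measure, log2 CPM of each gene was centred on its mean over the 8 libraries and the median was taken over the genes of a complex. For complex I this level was 0.10 and 0.15 in baseline CTL, 0.19 and -0.16 in baseline butyrate, -0.03 and -0.05 in lesional CTL and -0.17 and -0.05 in lesional butyrate skin. Complex II had the widest range, at 0.11 and 0.22 in baseline CTL, 0.29 and -0.25 in baseline butyrate, -0.02 and -0.04 in lesional CTL and -0.29 and -0.06 in lesional butyrate skin. Both were above 0 in baseline CTL skin and in baseline butyrate replicate 1 and below 0 in the other 5 libraries.

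The level of complex III was 0.04 and 0.10 in baseline CTL, 0.14 and -0.19 in baseline butyrate, 0.05 and 0.00 in lesional CTL and -0.07 and -0.09 in lesional butyrate skin. The median of complex IV moved least, at 0.05 and 0.05 in baseline CTL, 0.09 and -0.10 in baseline butyrate, 0.08 and 0.00 in lesional CTL and -0.02 and -0.01 in lesional butyrate skin. Its single genes differed widely and in both directions. From baseline to lesional CTL skin, the middle 50% of their log2 fold changes ran from -0.35 to 0.23. Within 0.5 of 0 lay 75% of them, against 94.1% to 100% in each other complex. Complex V, the ATP synthase, was at 0.04 and 0.11 in baseline CTL, 0.12 and -0.15 in baseline butyrate, 0.07 and -0.03 in lesional CTL and -0.08 and -0.06 in lesional butyrate skin. In all 5 complexes baseline butyrate replicate 1 had the highest level, although for the structural subunits of complex IV alone it was at -0.01 and lesional CTL replicate 4 was highest at 0.12. The lowest was that of baseline butyrate replicate 3 in complexes III, IV and V and that of lesional butyrate replicate 3 in complexes I and II. The SD between mice of a group, pooled over groups, was 0.133, 0.209, 0.121, 0.0727 and 0.104 for complexes I to V, and 0.052, 0.104, 0.0317, 0.0359 and 0.0481 without the baseline butyrate group.

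By single genes the picture was the same. Of the 92 genes, 60 and 75 were above their own mean in the baseline CTL libraries, 75 and 22 in baseline butyrate, 50 and 30 in lesional CTL and 23 and 23 in lesional butyrate. Baseline butyrate replicate 1 held the highest value of 41 genes, and baseline butyrate replicate 3 the lowest of 40.

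Markers of skeletal muscle were set beside these levels. All 21 markers were listed and 20 tested, the exception being the slow myosin Myh7, which had 0 counts in at least 1 library. Their summed level was 64010 and 74100 CPM in baseline CTL, 71860 and 15780 in baseline butyrate, 26120 and 36360 in lesional CTL and 20430 and 38360 in lesional butyrate skin. The libraries with the highest muscle sums were the same 3 that lay above 0 for complexes I and II. Baseline butyrate replicate 3 and lesional butyrate replicate 3, with the lowest muscle sums, had the lowest levels of complexes I and II. These were -0.16 and -0.17 for complex I and -0.25 and -0.29 for complex II. The order of the libraries was not the same throughout. In lesional CTL replicate 4, with 26120 CPM, complexes I and II were at -0.03 and -0.02. Complexes III, IV and V were at 0.05, 0.08 and 0.07 in that library. In lesional butyrate replicate 4, with 38360 CPM, every complex was below 0. The part of muscle content in the levels of the chain was not tested.

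**Figure D2:**
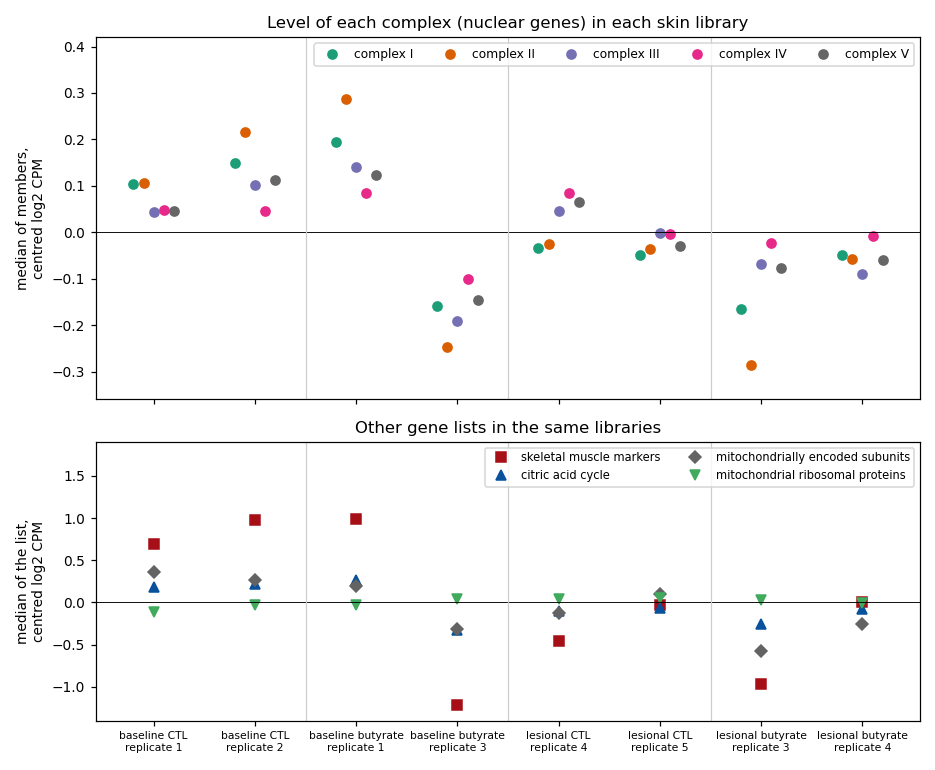
The upper panel shows the median centred log2 CPM of the nuclear genes of each complex (colours) in the 8 libraries (x axis), and the lower panel shows the same measure for skeletal muscle markers, the citric acid cycle, mitochondrially encoded subunits and mitochondrial ribosomal proteins. Complexes stay between -0.29 and 0.29, while muscle markers run from -1.21 to 0.99, and baseline butyrate replicate 1 is the highest library for each complex and for muscle markers.

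HDM exposure of CTL mice left no single gene of the chain past the test. Lesional minus baseline CTL skin gave 0 of 92 genes at an adjusted p under 0.1 with a fold change above 2 (edgeR quasi-likelihood test), against 3.58% of all 15163 tested genes. With no limit on the fold change it was also 0 of 92, against 4.83%. At an unadjusted p under 0.05 there were 6 genes (6.52% of 92), against 19.7% of all genes, and limma-voom and DESeq2 called 0 of 92 as well. The smallest adjusted p was 0.192.

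The differences were small for most genes. Their median log2 fold change was -0.11, against -0.02 for all tested genes, and 85 of 92 lay within 0.5 of 0, which is 92.4% against 64.2% of all genes. The median was below 0 relative to TMM-scaled libraries and 0.02 with library totals alone, a scaling that moved the median of all genes to 0.11, so that in both the chain lay 0.10 below all genes. The groups did not overlap for 48 genes that were lower in lesional skin (52.2%, against 38.5% of all genes) and for 18 that were higher (19.6%, against 36.7%).

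By complex, the median log2 fold change was -0.19 for complex I, -0.19 for complex II, -0.06 for complex III, -0.01 for complex IV and -0.05 for complex V, of which the last 3 turned to 0.07, 0.12 and 0.08 with library totals alone, and complex IV to 0.003 with RLE size factors. Complex I had 34 of 45 genes below 0 and complex II 4 of 6. Of the 9 assembly factors, 6 were above 0 with a median of 0.09, against -0.11 for the 73 subunits under TMM scaling, and this difference was not tested.

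**Figure D3:**
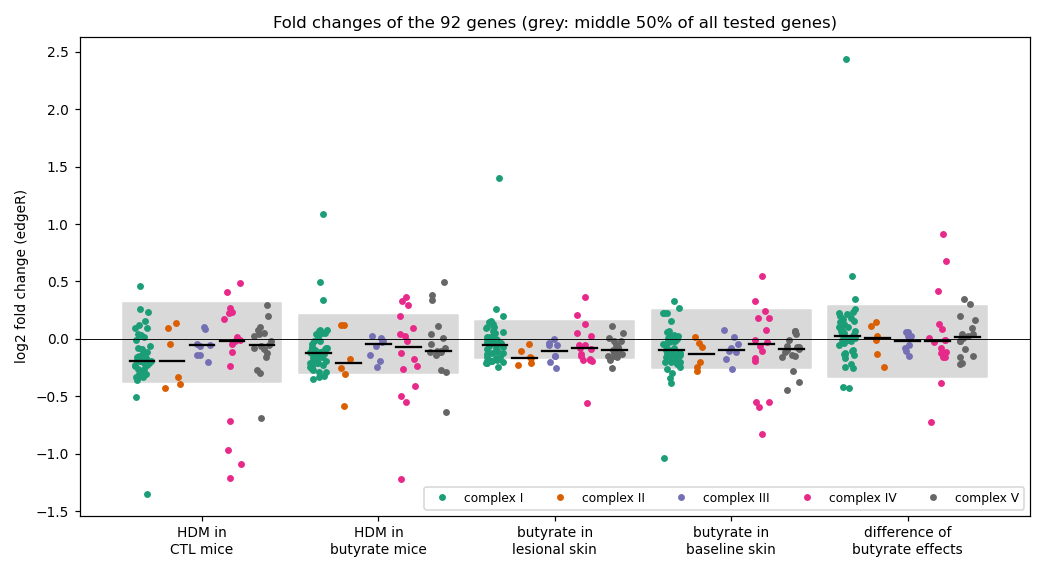
Each point is the log2 fold change of 1 of the 92 genes (y axis, edgeR) in the 5 comparisons (x axis), coloured by the complex in its name, with black bars at the medians and the middle 50% of all tested genes in grey. Most genes lie inside the grey range, and Ndufa4l2, shown under complex I, is the highest point in 3 comparisons, at 1.09, 1.402 and 2.44.

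Leaving out baseline butyrate replicate 3, which is not part of this comparison but enters the shared estimate of spread, left the median at -0.11 and changed the calls. Without baseline butyrate replicate 3, 19 of 92 genes were lower in lesional CTL skin at an adjusted p under 0.1 (20.7%), against 20% of all genes, and 4 were higher (4.35%), against 18.9%. With the fold limit there were 3 genes (3.26%), against 12.4%, and these were Ndufa4l2, Cox7a1 and Cox6a2. The share of genes called lower was thus near the background, and that of genes called higher below it. Leaving out the other mouse of that group instead also gave 3 calls with the fold limit (3.26%), against 12.3% of all genes.

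In butyrate mice, HDM exposure gave similar values. Lesional minus baseline butyrate skin had 0 of 92 genes at an adjusted p under 0.1 and a fold above 2 (edgeR), against 0.35% of all genes, and 0 of 92 without the fold limit, against 0.356%. At an unadjusted p under 0.05 there were 4 genes (4.35%), against 13.1%, and limma-voom and DESeq2 called 0 of 92. The median log2 fold change was -0.11 against -0.04 for all genes, with 65 of 92 below 0, and it turned to 0.10 without baseline butyrate replicate 1. Complex medians were -0.12, -0.21, -0.04, -0.07 and -0.11 for complexes I to V, that of complex III turning to 0.01 with library totals alone. All 5 depended on the baseline butyrate library used. They were -0.28, -0.40, -0.21, -0.16 and -0.21 without replicate 3 of that group, and 0.10, 0.14, 0.12, 0.10 and 0.078 without replicate 1. That of complex IV was also 0.00069 without lesional butyrate replicate 3. The groups did not overlap for 21 lower genes (22.8%, against 16.9%) and 11 higher ones (12%, against 15.7%).

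Without baseline butyrate replicate 3, lesional butyrate skin was compared with 1 baseline mouse whose spread was taken from the other groups. The median of the 92 genes was then -0.22 against 0.00 for all genes, and 76 of 92 were below 0. Genes lower in lesional skin at an adjusted p under 0.1 numbered 19 (20.7%), against 7.27% of all genes, and 2 were higher (2.17%), against 7.09%. With the fold limit there were 2 (2.17%), against 5.98%, namely Cox7a1 and Cox8b. The 19 lower genes held 11 of complex I, all 3 of Sdha, Sdhb and Sdhc, and Uqcrc1, and the 2 higher ones were Cox6a1 and Cox8a. Leaving out replicate 1 of that group instead gave 1 call with the fold limit (1.09%), against 19.1%.

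The core subunits of complex I show these sizes gene by gene. Ndufv1, which binds NADH and flavin, was at 135 and 149 CPM in baseline CTL, 153 and 102 in baseline butyrate, 128 and 119 in lesional CTL and 106 and 114 in lesional butyrate skin. Its partner in the NADH module, Ndufv2, was at 159 and 157 CPM in baseline CTL, 158 and 154 in baseline butyrate, 146 and 144 in lesional CTL and 120.3 and 139 in lesional butyrate skin. Ndufs1, the largest iron-sulfur subunit, was at 199.8 and 191 CPM in baseline CTL, 204 and 161 in baseline butyrate, 178 and 167 in lesional CTL and 140.1 and 159 in lesional butyrate skin. For Ndufv2 and Ndufs1 both lesional groups lay below their baseline groups without overlap. Ndufs1 had log2 fold changes of -0.18 ± 0.16 (SE, adjusted p = 0.539) in CTL and -0.29 ± 0.16 (SE, adjusted p = 0.497) in butyrate mice. The value in butyrate mice was -0.45 without baseline butyrate replicate 3.

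Ndufs3, of the quinone-binding module, was at 68.5 and 67.1 CPM in baseline CTL, 70.2 and 48.3 in baseline butyrate, 54.8 and 57.1 in lesional CTL and 52.7 and 59.3 in lesional butyrate skin. Ndufs7, the last iron-sulfur subunit before ubiquinone, was at 77.8 and 96.2 CPM in baseline CTL, 87.3 and 49.97 in baseline butyrate, 76.1 and 73.3 in lesional CTL and 63.2 and 65.7 in lesional butyrate skin. For Ndufs3 and Ndufs7 lesional butyrate skin overlapped baseline butyrate skin, since baseline butyrate replicate 3 had the lowest value of each. Ndufs8, an iron-sulfur subunit as well, was at 64.4 and 65.4 CPM in baseline CTL, 66.6 and 65.7 in baseline butyrate, 65.8 and 66.9 in lesional CTL and 58.9 and 57.1 in lesional butyrate skin, and its difference was 0.03 ± 0.11 (SE, adjusted p = 0.885) in CTL and -0.19 ± 0.11 (SE, adjusted p = 0.508) in butyrate mice.

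Ndufaf4 is an assembly factor of complex I. It was at 31.5 and 32.5 CPM in baseline CTL, 32.3 and 34.5 in baseline butyrate, 43.9 and 44.2 in lesional CTL and 53.9 and 40.5 in lesional butyrate skin, higher in all 4 lesional libraries than in all 4 baseline ones. The log2 fold change was 0.46 ± 0.17 (SE, adjusted p = 0.21) in CTL and 0.50 ± 0.17 (SE, adjusted p = 0.303) in butyrate mice, and neither passed. The first was 0.46 ± 0.15 (SE, adjusted p = 0.0602) without baseline butyrate replicate 3, past the test without the fold limit. Ndufaf2, a further assembly factor, was at 7.72 and 9.55 CPM in baseline CTL, 8.68 and 10.6 in baseline butyrate, 10.04 and 10.2 in lesional CTL and 12.6 and 11.8 in lesional butyrate skin, with a difference between lesional butyrate and lesional CTL skin of 0.26 ± 0.20 (SE, adjusted p = 1). Ndufaf7, a methyltransferase that acts on complex I, was at 18.4 and 18.1 CPM in baseline CTL, 21.9 and 24.1 in baseline butyrate, 19.6 and 19.5 in lesional CTL and 18.5 and 22.7 in lesional butyrate skin, and its butyrate difference in baseline skin was 0.33 ± 0.16 (SE, adjusted p = 0.714). Ndufaf6 was at 4.72 and 5.94 CPM in baseline CTL, 6.201 and 6.62 in baseline butyrate, 6.78 and 5.999 in lesional CTL and 4.92 and 6.51 in lesional butyrate skin, with overlapping groups in lesional skin.

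Complex II is also the succinate dehydrogenase of the citric acid cycle, and Sdha, Sdhb and Sdhc had negative HDM differences in both CTL and butyrate mice. The flavoprotein Sdha was at 350.2 and 367 CPM in baseline CTL, 373 and 232 in baseline butyrate, 269.8 and 275 in lesional CTL and 229 and 279 in lesional butyrate skin. Sdhb, its iron-sulfur partner, was at 174 and 189.6 CPM in baseline CTL, 196 and 171 in baseline butyrate, 144 and 145 in lesional CTL and 115 and 131 in lesional butyrate skin. Sdhb had the smallest unadjusted p of all members in butyrate mice, with log2 fold changes of -0.33 ± 0.14 (SE, adjusted p = 0.256) in CTL and -0.58 ± 0.14 (SE, adjusted p = 0.213) in butyrate mice, and without baseline butyrate replicate 3 it was -0.33 ± 0.10 (SE, adjusted p = 0.0597) and -0.67 ± 0.13 (SE, adjusted p = 0.0501). All 4 lesional libraries were below all 4 baseline libraries for this gene.

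The membrane anchor Sdhc was at 139.6 and 153 CPM in baseline CTL, 153 and 88.4 in baseline butyrate, 111 and 107 in lesional CTL and 88.1 and 107 in lesional butyrate skin. Its differences were -0.42 ± 0.26 (SE, adjusted p = 0.4) in CTL and -0.31 ± 0.26 (SE, adjusted p = 0.68) in butyrate mice, and -0.42 ± 0.12 (SE, adjusted p = 0.0452) and -0.65 ± 0.14 (SE, adjusted p = 0.0632) without baseline butyrate replicate 3. The other anchor, Sdhd, was at 124 and 142 CPM in baseline CTL, 151 and 80.7 in baseline butyrate, 150.3 and 142 in lesional CTL and 128 and 125 in lesional butyrate skin. Its HDM difference was 0.14 ± 0.28 (SE, adjusted p = 0.808) in CTL mice, and in butyrate mice 0.12 ± 0.28 (SE, adjusted p = 0.888), which turned to -0.26 ± 0.12 (SE, adjusted p = 0.232) without baseline butyrate replicate 3. Sdhaf1, which helps insert the iron-sulfur clusters of Sdhb and shares 69% of its 50-base windows with other genes, was at 17.5 and 18.04 CPM in baseline CTL, 16.1 and 18.6 in baseline butyrate, 17.03 and 17.4 in lesional CTL and 14.5 and 16.3 in lesional butyrate skin.

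In complex III the HDM differences of all 8 genes lay within 0.5 of 0. Its core protein Uqcrc1 was at 305 and 324 CPM in baseline CTL, 332 and 193 in baseline butyrate, 279 and 268 in lesional CTL and 221 and 256 in lesional butyrate skin. Uqcrc2, the other core protein, was at 269 and 262 CPM in baseline CTL, 285 and 228 in baseline butyrate, 249 and 232 in lesional CTL and 207 and 226 in lesional butyrate skin. The Rieske iron-sulfur protein Uqcrfs1 was at 159.6 and 151 CPM in baseline CTL, 164 and 111 in baseline butyrate, 156 and 144 in lesional CTL and 140.03 and 129 in lesional butyrate skin. The HDM differences of Uqcrc1 were -0.20 ± 0.26 (SE, adjusted p = 0.681) in CTL and -0.14 ± 0.26 (SE, adjusted p = 0.861) in butyrate mice, while those of Uqcrc2 were -0.14 and -0.25 and those of Uqcrfs1 -0.05 and -0.03. In butyrate mice they were -0.48 ± 0.14 (SE, adjusted p = 0.0947), -0.40 ± 0.12 (SE, adjusted p = 0.109) and -0.28 ± 0.12 (SE, adjusted p = 0.185) for Uqcrc1, Uqcrc2 and Uqcrfs1 once baseline butyrate replicate 3 was left out, of which that of Uqcrc1 passed without the fold limit. Uqcrh, the hinge protein, was at 204 and 216 CPM in baseline CTL, 226 and 218 in baseline butyrate, 236 and 215 in lesional CTL and 239.8 and 211 in lesional butyrate skin. Uqcrq, known as a ubiquinone-binding subunit, was at 106 and 119 CPM in baseline CTL, 118 and 90.9 in baseline butyrate, 121 and 118 in lesional CTL and 102 and 98.6 in lesional butyrate skin. Uqcrq had one of the largest negative differences between lesional butyrate and lesional CTL skin, at -0.25 ± 0.16 (SE, adjusted p = 1).

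The widely expressed nuclear subunits of complex IV come first. Cox4i1, the largest nuclear subunit, was at 285 and 299 CPM in baseline CTL, 303 and 217 in baseline butyrate, 293 and 274 in lesional CTL and 271 and 266 in lesional butyrate skin. Cox5a, which lies on the matrix side, was at 167 and 161 CPM in baseline CTL, 169 and 135 in baseline butyrate, 145 and 134 in lesional CTL and 112 and 141 in lesional butyrate skin. Cox5b, the zinc-binding subunit, was at 109.9 and 119 CPM in baseline CTL, 114 and 86.6 in baseline butyrate, 116 and 112 in lesional CTL and 90.3 and 108 in lesional butyrate skin. Cox6c was at 177 and 172 CPM in baseline CTL, 186 and 156 in baseline butyrate, 181 and 164 in lesional CTL and 149 and 154 in lesional butyrate skin. For these 4 genes the log2 fold change of HDM lay between -0.23 and -0.01 in CTL and between -0.26 and 0.05 in butyrate mice, and none of them passed. In butyrate mice the difference of Cox4i1 turned to -0.17 ± 0.12 (SE, adjusted p = 0.393) and that of Cox5a was -0.41 ± 0.15 (SE, adjusted p = 0.149) without baseline butyrate replicate 3, while Cox5b and Cox6c were at -0.20 ± 0.14 (SE, adjusted p = 0.386) and -0.30 ± 0.12 (SE, adjusted p = 0.158).

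In complex V, Atp5a1 and Atp5b encode the alpha and beta subunits of the catalytic head. Atp5a1 was at 1087 and 1114 CPM in baseline CTL, 1137 and 859.7 in baseline butyrate, 1031 and 946 in lesional CTL and 833 and 974 in lesional butyrate skin. Atp5b was at 1321 and 1341 CPM in baseline CTL, 1386 and 1118 in baseline butyrate, 1317 and 1233 in lesional CTL and 1153 and 1221 in lesional butyrate skin. It differed by -0.06 ± 0.21 (SE, adjusted p = 0.882) with HDM in CTL mice. The central stalk subunit Atp5c1 was at 362 and 361 CPM in baseline CTL, 379 and 269 in baseline butyrate, 299 and 302 in lesional CTL and 291 and 311 in lesional butyrate skin. The peripheral stalk subunit Atp5o was at 205 and 216 CPM in baseline CTL, 237 and 165 in baseline butyrate, 217 and 212 in lesional CTL and 196 and 209 in lesional butyrate skin. In each of these 4 genes baseline butyrate replicate 1 was the highest library.

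The c-ring genes differed from each other in level. Atp5g1 was at 17.2 and 19.98 CPM in baseline CTL, 17.3 and 9.96 in baseline butyrate, 18.5 and 18.3 in lesional CTL and 18.1 and 16.3 in lesional butyrate skin, lowest in baseline butyrate replicate 3. Atp5g2 was at 3.17 and 3.11 CPM in baseline CTL, 2.31 and 2.52 in baseline butyrate, 3.74 and 2.91 in lesional CTL and 3.77 and 2.56 in lesional butyrate skin. Atp5g3 was at 235 and 259 CPM in baseline CTL, 244 and 218 in baseline butyrate, 301 and 268 in lesional CTL and 248 and 251 in lesional butyrate skin. The last was higher in lesional than in baseline skin without overlap in both pairs of groups, by 0.20 ± 0.14 (SE, adjusted p = 0.454) and 0.11 ± 0.14 (SE, adjusted p = 0.794), which did not pass, and the second was 0.04 ± 0.14 (SE, adjusted p = 0.881) without baseline butyrate replicate 3. Atp5l, a membrane subunit whose counts are uncertain for the shared sequence named above, was at 5.95 and 4.83 CPM in baseline CTL, 4.45 and 5.24 in baseline butyrate, 7.63 and 5.63 in lesional CTL and 8.495 and 5.21 in lesional butyrate skin. Atp5s had the most negative HDM difference of the 17 genes named for complex V, at 11 and 9.102 CPM in baseline CTL, 10.9 and 8.38 in baseline butyrate, 6.03 and 6.46 in lesional CTL and 6.63 and 5.72 in lesional butyrate skin, and was lower in all 4 lesional libraries than in all baseline ones. Its difference was -0.69 ± 0.23 (SE, adjusted p = 0.192) in CTL and -0.64 ± 0.23 (SE, adjusted p = 0.332) in butyrate mice, and -0.68 ± 0.18 (SE, adjusted p = 0.0343) and -0.81 ± 0.21 (SE, adjusted p = 0.078) without baseline butyrate replicate 3. Atp5sl was at 38.2 and 39.6 CPM in baseline CTL, 37.4 and 26.9 in baseline butyrate, 31.8 and 31.6 in lesional CTL and 25.8 and 27.5 in lesional butyrate skin.

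**Figure D4:**
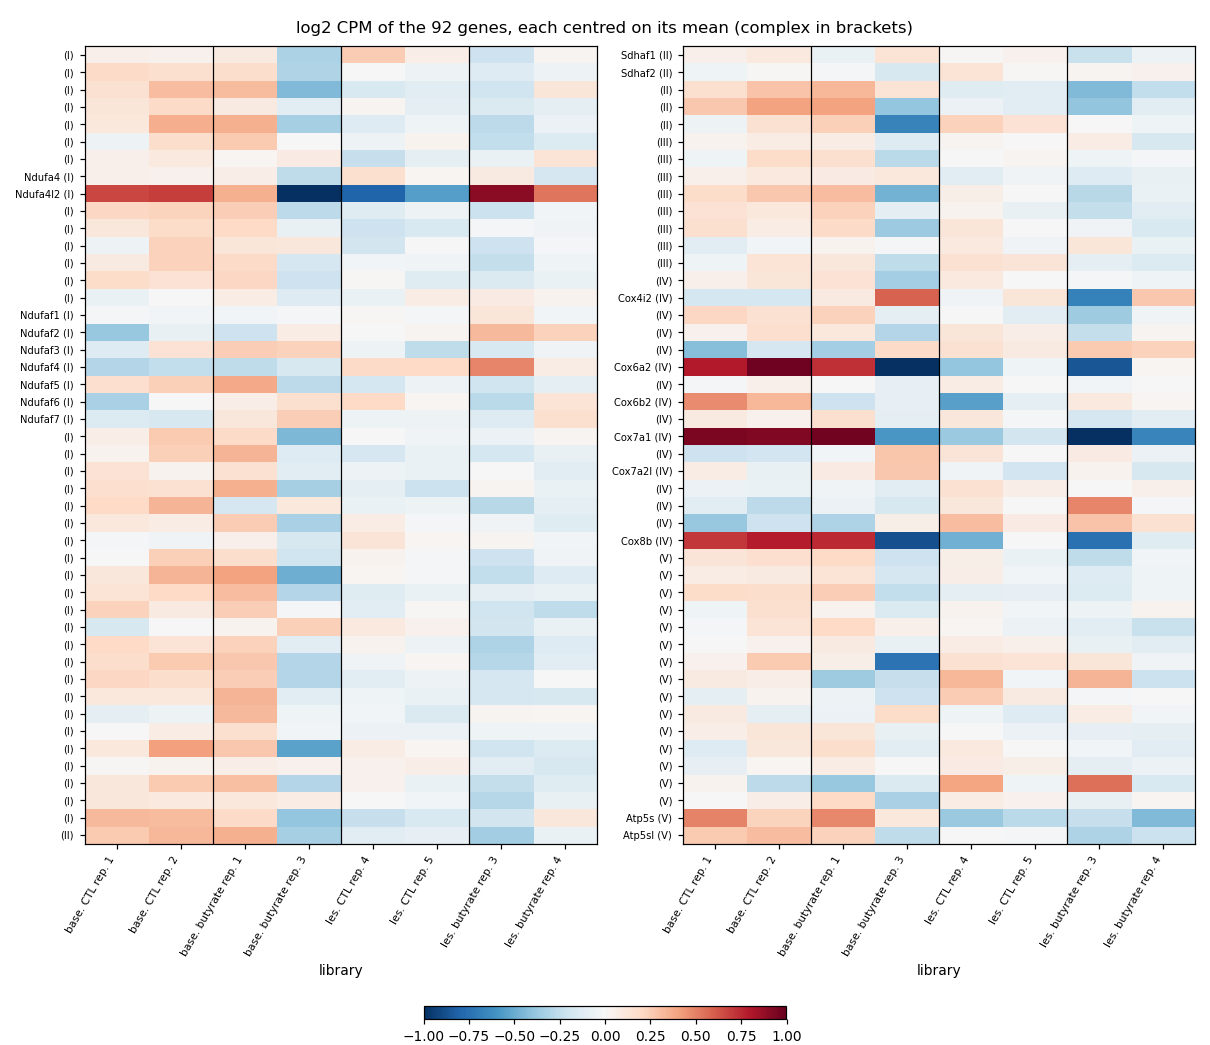
Each row is 1 of the 92 genes, in order of complex, with names for assembly factors, tissue isoforms and other genes that are no structural subunits, and each column 1 of 8 libraries, and colours give log2 CPM centred on the mean of the gene and end at -1 and 1. Ndufa4l2, Cox6a2, Cox7a1 and Cox8b are the 4 genes that differ over 2-fold within baseline butyrate skin, and baseline butyrate replicate 3 holds the lowest value of 40 genes.

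In 3 paired isoforms of complex IV, the muscle form was lower and the widely expressed form higher in all 4 lesional libraries and in baseline butyrate replicate 3 than in baseline CTL skin. Cox7a1, the heart and skeletal muscle form of subunit 7a (chr7:30184144-30186078, plus strand, GRCm38), was at 47.01 and 46.4 CPM in baseline CTL, 47.6 and 16.3 in baseline butyrate, 18.9 and 21.5 in lesional CTL and 11.9 and 15.5 in lesional butyrate skin. Its difference with HDM was -1.21 ± 0.47 (SE, adjusted p = 0.231) in CTL and -1.22 ± 0.47 (SE, adjusted p = 0.354) in butyrate mice, and -1.21 ± 0.15 (SE, adjusted p = 0.00461) and -1.797 ± 0.17 (SE, adjusted p = 0.0189) without baseline butyrate replicate 3. Cox7a2, its widely expressed counterpart (chr9:79755361-79759878, minus strand), was at 90.9 and 91.9 CPM in baseline CTL, 103 and 127 in baseline butyrate, 115 and 105 in lesional CTL and 111 and 101 in lesional butyrate skin. The difference of Cox7a2 was 0.27 ± 0.15 (SE, adjusted p = 0.356) in CTL mice and -0.12 ± 0.15 (SE, adjusted p = 0.783) in butyrate mice. Without baseline butyrate replicate 3 those were 0.27 ± 0.10 (SE, adjusted p = 0.0884) and 0.04 ± 0.12 (SE, adjusted p = 0.845).

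Subunits 6a and 8 also have a muscle and a widely expressed form. Cox6a2, the muscle form (chr7:128205435-128206387, minus strand), was at 202 and 229 CPM in baseline CTL, 193 and 50.2 in baseline butyrate, 89.1 and 113 in lesional CTL and 64.4 and 119 in lesional butyrate skin. The widely expressed Cox6a1 (chr5:115345642-115348981, minus strand) was at 108 and 129 CPM in baseline CTL, 115 and 166 in baseline butyrate, 161 and 154 in lesional CTL and 174 and 170.3 in lesional butyrate skin. With HDM in CTL mice, Cox6a2 differed by -1.09 ± 0.61 (SE, adjusted p = 0.364) and Cox6a1 by 0.41 ± 0.20 (SE, adjusted p = 0.308). In butyrate mice the differences were -0.41 ± 0.61 (SE, adjusted p = 0.822) and 0.30 ± 0.20 (SE, adjusted p = 0.586), and -1.08 ± 0.34 (SE, adjusted p = 0.112) and 0.59 ± 0.14 (SE, adjusted p = 0.0688) without baseline butyrate replicate 3. The muscle form exceeded the other in CPM in the 3 libraries with high muscle markers and was below it in the other 5.

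Cox8b, the muscle form of subunit 8 (chr7:140898945-140900446, minus strand), was at 83.7 and 88.4 CPM in baseline CTL, 86.2 and 27.9 in baseline butyrate, 36.8 and 51.4 in lesional CTL and 30.6 and 47.3 in lesional butyrate skin. Cox8a, the widely expressed form (chr19:7215153-7217616, minus strand), was at 113 and 127 CPM in baseline CTL, 119 and 153 in baseline butyrate, 182 and 155 in lesional CTL and 179 and 163 in lesional butyrate skin. With HDM in CTL mice, Cox8b differed by -0.96 ± 0.52 (SE, adjusted p = 0.345) and Cox8a by 0.49 ± 0.17 (SE, adjusted p = 0.21). In butyrate mice the values were -0.55 ± 0.51 (SE, adjusted p = 0.707) and 0.33 ± 0.17 (SE, adjusted p = 0.476), and -1.14 ± 0.28 (SE, adjusted p = 0.0762) and 0.53 ± 0.15 (SE, adjusted p = 0.0943) without baseline butyrate replicate 3. None of these 6 genes passed over all 8 mice, and under RLE size factors and library totals alone each HDM difference had the same sign as here.

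Ratios within a library put the pairs on 1 scale of CPM per kilobase. Cox6a2 to Cox6a1 was 1.57 and 1.49 in baseline CTL, 1.42 and 0.254 in baseline butyrate, 0.465 and 0.619 in lesional CTL and 0.311 and 0.585 in lesional butyrate skin. Cox7a1 to Cox7a2 was 0.868 and 0.847 in baseline CTL, 0.774 and 0.215 in baseline butyrate, 0.276 and 0.343 in lesional CTL and 0.179 and 0.258 in lesional butyrate skin. Cox8b to Cox8a was 1.13 and 1.06 in baseline CTL, 1.11 and 0.278 in baseline butyrate, 0.3099 and 0.506 in lesional CTL and 0.261 and 0.443 in lesional butyrate skin. In each pair baseline CTL skin and baseline butyrate replicate 1 had the highest ratios without overlap with the other 5 libraries, and the same 3 libraries had the highest skeletal muscle sums. The median log2 fold change of those markers was -1.12 with HDM in CTL and -0.76 in butyrate mice. In each, 20 of 20 were below 0 and 0 were called, against 3.58% and 0.35% of all genes. Without baseline butyrate replicate 3 the medians were -1.116 and -1.432. Their part in the isoform values was not tested.

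**Figure D5:**
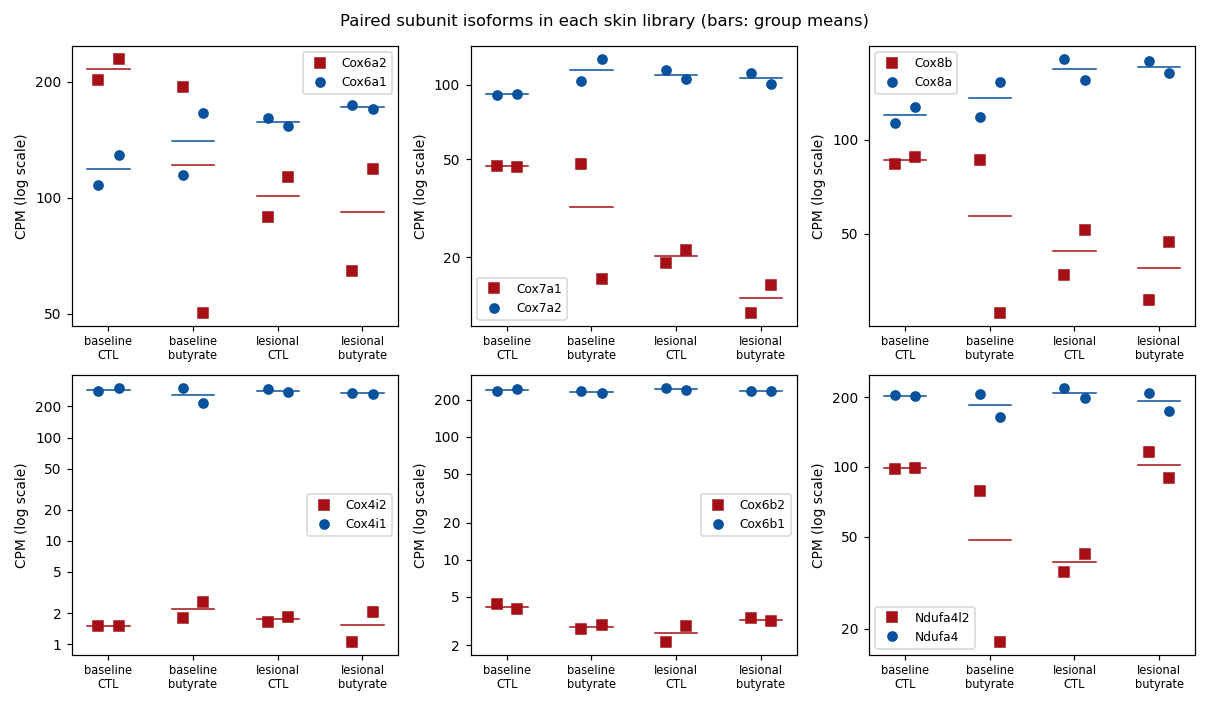
CPM (log scale) of 6 pairs of genes in each library by group, with muscle or tissue forms in red squares, widely expressed forms in blue circles and bars at group means. Cox6a2, Cox7a1 and Cox8b are lower and their partners higher in lesional CTL than in baseline CTL skin, while Cox4i1, Cox6b1 and Ndufa4 differ by less than 0.1 on the log2 scale.

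The promoters of 5 of these 6 genes are shown because the genes differed in opposite directions, and Cox6a2 was not in the promoter table used here. Each sequence holds 250 bases before the first listed start of the gene (RefSeq, GRCm38.p6), in the order Cox7a1 at chr7:30183921-30184170 on the plus strand, Cox8b at chr7:140900447-140900696 on the minus strand, Cox7a2 at chr9:79759854-79760103 on the minus strand, Cox8a at chr19:7217617-7217866 on the minus strand and Cox6a1 at chr5:115348959-115349208 on the minus strand. Capitals mark matches to 3 motifs searched on both strands, the core of nuclear respiratory factor 1 (NRF-1, GCATGCGC, where overlapping matches are merged), an ETS site (CCGGAAGT) and an E-box (CAGCTG).
Cox7a1: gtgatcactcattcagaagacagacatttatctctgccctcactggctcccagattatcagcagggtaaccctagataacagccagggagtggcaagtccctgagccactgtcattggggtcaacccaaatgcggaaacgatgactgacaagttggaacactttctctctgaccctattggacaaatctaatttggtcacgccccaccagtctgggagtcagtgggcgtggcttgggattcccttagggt
Cox8b: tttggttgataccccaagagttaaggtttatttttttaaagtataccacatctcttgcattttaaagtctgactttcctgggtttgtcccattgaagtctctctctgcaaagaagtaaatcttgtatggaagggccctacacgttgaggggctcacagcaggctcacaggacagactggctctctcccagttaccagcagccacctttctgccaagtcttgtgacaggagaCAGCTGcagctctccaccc
Cox7a2: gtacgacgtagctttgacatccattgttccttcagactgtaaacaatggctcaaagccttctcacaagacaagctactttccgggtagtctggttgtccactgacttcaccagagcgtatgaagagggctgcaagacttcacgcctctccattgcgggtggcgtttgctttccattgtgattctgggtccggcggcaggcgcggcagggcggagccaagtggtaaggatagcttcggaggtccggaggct
Cox8a: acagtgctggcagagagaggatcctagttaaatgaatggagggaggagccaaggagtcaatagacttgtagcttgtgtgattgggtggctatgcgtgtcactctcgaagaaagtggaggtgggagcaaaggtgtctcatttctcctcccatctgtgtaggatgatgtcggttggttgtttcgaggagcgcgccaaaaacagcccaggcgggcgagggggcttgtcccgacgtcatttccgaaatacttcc
Cox6a1: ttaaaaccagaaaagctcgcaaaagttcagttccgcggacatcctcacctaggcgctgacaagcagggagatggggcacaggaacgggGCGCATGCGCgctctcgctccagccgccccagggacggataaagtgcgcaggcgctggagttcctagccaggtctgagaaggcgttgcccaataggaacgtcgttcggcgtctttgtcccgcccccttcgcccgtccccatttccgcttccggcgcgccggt

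Cox6a1 held the NRF-1 core on both strands between positions -162 and -153, and Cox8b held an E-box between -19 and -14. No match was found in the 250 bases printed for Cox7a1, Cox7a2 and Cox8a. The ETS site occurs in Cox8a outside the printed part, in a match that runs across the end of it and in another after the start. Over 77 of the 92 genes with a promoter in the table, 12 held the NRF-1 core (15.6%), against 3.72% of 15852 genes of the count table with a promoter, searched from 250 bases before to 50 after the start. The ETS site was in 5 (6.5%, against 5.39%) and the E-box in 6 (7.8%, against 15.3%). A match describes the sequence and does not show that a factor binds there.

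The remaining isoform pairs were low on 1 side. Cox4i2, a lung and hypoxia-linked form of subunit 4, was at 1.5 and 1.499 CPM in baseline CTL, 1.804 and 2.57 in baseline butyrate, 1.65 and 1.85 in lesional CTL and 1.05 and 2.05 in lesional butyrate skin. Its difference with butyrate in baseline skin was 0.55 ± 0.41 (SE, adjusted p = 0.714), and 0.27 ± 0.46 (SE, adjusted p = 1) without baseline butyrate replicate 3. Cox6b2, known from testis, was at 4.33 and 3.94 CPM in baseline CTL, 2.71 and 2.95 in baseline butyrate, 2.13 and 2.91 in lesional CTL and 3.34 and 3.16 in lesional butyrate skin. Cox6b1, its widely expressed counterpart, was at 236 and 246 CPM in baseline CTL, 237 and 225 in baseline butyrate, 250.1 and 238 in lesional CTL and 234 and 237 in lesional butyrate skin. Cox6b2 differed by -0.71 ± 0.27 (SE, adjusted p = 0.23) with HDM in CTL mice and by 0.20 ± 0.27 (SE, adjusted p = 0.807) in butyrate mice, and by -0.71 ± 0.24 (SE, adjusted p = 0.0701) and 0.27 ± 0.30 (SE, adjusted p = 0.588) without baseline butyrate replicate 3. Cox7b, whose partner Cox7b2 was at 0 counts, was at 162 and 162 CPM in baseline CTL, 164 and 157 in baseline butyrate, 187 and 177 in lesional CTL and 168 and 175 in lesional butyrate skin. Cox7a2l, the supercomplex factor, was at 137 and 124 CPM in baseline CTL, 138 and 157 in baseline butyrate, 127 and 114 in lesional CTL and 134 and 117 in lesional butyrate skin.

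Ndufa4l2 had the largest difference of the 92 genes in 4 of the 5 comparisons, the exception being HDM in butyrate mice, where Cox7a1 differed more. It is the paralog of the complex IV subunit Ndufa4, known as a target of hypoxia-inducible factor that lowers complex I activity (chr10:127514967-127517154, plus strand, GRCm38). It was at 98.03 and 99.2 CPM in baseline CTL, 78.8 and 17.6 in baseline butyrate, 35.3 and 42.1 in lesional CTL and 115 and 89.2 in lesional butyrate skin. In lesional skin the butyrate mice were above both CTL mice, 1 above and 1 below the baseline CTL mice, while baseline butyrate replicate 3 was the lowest library of all. Ndufa4 itself was at 203 and 202 CPM in baseline CTL, 205 and 164 in baseline butyrate, 219 and 199 in lesional CTL and 208 and 175 in lesional butyrate skin.

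The log2 fold change of Ndufa4l2 was -1.35 ± 0.62 (SE, adjusted p = 0.287) with HDM in CTL mice and 1.09 ± 0.61 (SE, adjusted p = 0.505) in butyrate mice. Butyrate in lesional skin gave 1.402 ± 0.62 (SE, adjusted p = 1), and butyrate in baseline skin -1.03 ± 0.61 (SE, adjusted p = 0.714). The difference of the butyrate effects was 2.44 ± 0.87 (SE, adjusted p = 0.84), with an unadjusted p of 0.0298. Without baseline butyrate replicate 3 the values were -1.35 ± 0.15 (SE, adjusted p = 0.00373), 0.38 ± 0.19 (SE, adjusted p = 0.238), 1.402 ± 0.15 (SE, adjusted p = 0.0412), -0.32 ± 0.19 (SE, adjusted p = 1) and 1.73 ± 0.24 (SE, adjusted p = 0.331) in the same order. Its HDM difference in CTL mice and its butyrate difference in lesional skin then passed at a fold above 2, and they share the lesional CTL mice.

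Suprabasal keratinocyte markers were also low in lesional CTL skin and in baseline butyrate replicate 3, with a median centred log2 level of 0.61 and 0.41 in baseline CTL, 0.52 and -1.29 in baseline butyrate, -0.69 and -0.46 in lesional CTL and 0.75 and 0.29 in lesional butyrate skin. Over 8 mice their median difference was 0.996 with butyrate in lesional skin, with 9 of 9 above 0 and 0 called. With HDM in CTL mice it was -1.16, with 8 of 9 below 0 and 1 called, against 3.58% of all genes. Without baseline butyrate replicate 3 these medians were 0.996 and -1.15. The number of markers called rose in both comparisons without that library, and so did the number of all genes called. That library enters the shared estimate of spread. The list of 8 hypoxia-induced genes was at 0.19 and 0.12 in baseline CTL, 0.21 and -0.71 in baseline butyrate, 0.18 and -0.25 in lesional CTL and 0.12 and -0.08 in lesional butyrate skin. Brown adipocyte markers, 7 tested, were also below 0 in lesional CTL skin and in baseline butyrate replicate 3 and above 0 elsewhere. They were at 0.34 and 0.44 in baseline CTL and 0.29 and -0.66 in baseline butyrate skin. In lesional skin they were at -0.19 and -0.14 in CTL and 0.21 and 0.24 in butyrate mice. The part of keratinocyte differentiation, of hypoxia or of these other markers in the level of Ndufa4l2 was not tested.

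No gene of the chain passed the test of butyrate in lesional skin over all 8 mice. Lesional butyrate minus lesional CTL skin gave 0 of 92 genes under either rule (edgeR), against 0% of all genes, 0 of 92 at an unadjusted p under 0.05, against 4.84%, and 0 of 92 by limma-voom and DESeq2. The median log2 fold change was -0.08 against -0.01 for all genes, with 67 of 92 below 0 and 90 of 92 within 0.5 of 0. Complex medians were -0.05, -0.16, -0.10, -0.08 and -0.10 for complexes I to V and stayed below 0 under RLE size factors and library totals. The groups did not overlap for 42 lower genes (45.7%, against 22.5% of all genes) and 10 higher ones (10.9%, against 22.4%).

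Without baseline butyrate replicate 3, 1 of 92 genes passed in lesional skin at a fold above 2 (1.09%), against 1.23% of all genes, and it was Ndufa4l2. There was also 1 call without replicate 1 of that group (1.09%), against 1.22%. Besides Ndufa4l2, the largest positive differences were those of Cox6b2, at 0.36 ± 0.27, and Ndufaf2, and the largest negative ones were those of Cox7a1, at -0.56 ± 0.46, Uqcrq and Atp5sl, the last at -0.25 ± 0.18. Muscle markers had a median difference of -0.12 here, with 15 of 20 below 0, and the library lesional butyrate replicate 3 had the lower muscle sum of its group. Markers of other cell types had larger median differences. Neutrophil markers summed to 23.8 and 27.8 CPM in baseline CTL and 33.4 and 20.2 in baseline butyrate skin. In lesional skin they summed to 2851 and 1796 CPM in CTL and 804 and 376 in butyrate mice. Their median difference was -2.45 with 9 of 9 below 0, and with HDM in CTL mice it was 4.82 with 9 of 9 called higher. Injury-induced keratinocyte markers had a median of -0.84 with 5 of 5 below 0, against 4.27 with 4 of 5 called higher with HDM in CTL mice. Of all genes, 3.58% were called with HDM in CTL mice, in either direction. The medians were -0.45 for T cell markers, with 8 of 8 below 0, and -0.41 for endothelial markers, with 6 of 6, and 0 genes of these 4 lists were called for butyrate in lesional skin over 8 mice. Leaving out baseline butyrate replicate 3 gave medians of -2.445 for neutrophil and -0.835 for injury-induced markers with butyrate in lesional skin. Their part in the values of the chain was not tested.

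In baseline skin butyrate gave no call either. Baseline butyrate minus baseline CTL skin had 0 of 92 genes under either rule (edgeR), against 0% of all genes, and 0 of 92 at an unadjusted p under 0.05, against 3.49%, with 0 of 92 by limma-voom and DESeq2. The median was -0.09 against 0.00 for all genes, and it turned to 0.05, with 70 of 92 above 0, when baseline butyrate replicate 3 was left out. Still 0 of 92 passed then, against 0% of all genes, whereas 4 passed without baseline butyrate replicate 1 (4.35%), against 24.1%, a fit that leaves the library that stood apart as the only mouse of its group. Complex medians over all mice were -0.10, -0.13, -0.09, -0.05 and -0.09, that of complex IV turning to 0.02 with library totals alone. All 5 turned above 0 when replicate 3 was left out, to 0.052, 0.061, 0.077, 0.025 and 0.047, and they were -0.28, -0.39, -0.27, -0.14 and -0.21 without replicate 1. The groups did not overlap for 8 lower genes (8.7%, against 15.9%) and 10 higher ones (10.9%, against 13.8%). The largest differences were those of Ndufa4l2, Cox6a2, at -0.83 ± 0.61, and Cox8b, at -0.59 ± 0.51, on the negative side and of Cox4i2, Cox7a2, at 0.33 ± 0.15, and Ndufaf7 on the positive side. Without baseline butyrate replicate 3 the first 3 were at -0.32 ± 0.19 (SE, adjusted p = 1), -0.16 ± 0.35 (SE, adjusted p = 1) and 0.00 ± 0.29 (SE, adjusted p = 1).

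Whether butyrate acted differently in lesional and baseline skin was tested by the difference of the 2 effects, which equals the difference of the HDM effects between butyrate and CTL mice. It gave 0 of 92 genes under either rule (edgeR), against 0% of all genes, also by limma-voom and DESeq2 and also without baseline butyrate replicate 3, against 0%. At an unadjusted p under 0.05 there was 1 gene (1.09%), Ndufa4l2, against 4.64%. The median of the 92 was 0.01 against -0.04 for all genes, and it turned to -0.06 with library totals alone and to -0.15 without baseline butyrate replicate 3. There were 3 calls (3.26%) without baseline butyrate replicate 1, against 20.9% of all genes. Next to Ndufa4l2 the largest positive values were those of Cox6b2, at 0.91 ± 0.39 (SE, adjusted p = 0.84), and Cox6a2, at 0.68 ± 0.86 (SE, adjusted p = 0.868). The largest negative ones were those of Cox4i2, at -0.72 ± 0.58 (SE, adjusted p = 0.84), Ndufaf6, at -0.43 ± 0.36 (SE, adjusted p = 0.84), and Ndufc2, at -0.42 ± 0.19 (SE, adjusted p = 0.84). Ndufc2, a membrane subunit of complex I, was at 38.9 and 43.3 CPM in baseline CTL, 44.6 and 51.4 in baseline butyrate, 46.6 and 44.9 in lesional CTL and 38.3 and 41.5 in lesional butyrate skin.

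The mitochondrially encoded subunits, which the name rule leaves out, were highest in baseline CTL skin and baseline butyrate replicate 1. The summed level of the 13 genes was 78120 and 68790 CPM in baseline CTL, 69750 and 46750 in baseline butyrate, 56610 and 60190 in lesional CTL and 47480 and 53220 in lesional butyrate skin. mt-Co1, the catalytic subunit of complex IV, was at 27347 and 24452 CPM in baseline CTL, 25813 and 15997 in baseline butyrate, 20622 and 21588 in lesional CTL and 18004 and 18481 in lesional butyrate skin. mt-Cytb of complex III was at 16022 and 14155 CPM in baseline CTL, 14371 and 10830 in baseline butyrate, 11995 and 12872 in lesional CTL and 10175 and 11204 in lesional butyrate skin. mt-Nd1 of complex I was at 11039 and 9834 CPM in baseline CTL, 9393 and 7001 in baseline butyrate, 8481 and 8916 in lesional CTL and 6996 and 8836 in lesional butyrate skin. For each of these 3 genes baseline CTL replicate 1 was the highest library. With HDM, 12 of 13 were below 0 in CTL mice (median -0.26) and 13 of 13 in butyrate mice (median -0.50). With butyrate in lesional skin 12 of 13 were below 0, with a median of -0.47 against -0.08 for the 92 nuclear genes. Butyrate in baseline skin gave 11 of 13 below 0 (median -0.28, and -0.15 without baseline butyrate replicate 3). Over 8 mice 0 were called in any comparison.

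Their counts are not comparable between genes. Those of mt-Co2, mt-Co3 and mt-Atp6, at a mean of 48.97, 43.7 and 49.03 CPM per kilobase against 13940 for mt-Co1, share 100%, 99.9% and 99.5% of their 50-base windows with other annotated genes. mt-Nd3 and mt-Nd4l, at 10.6 and 9.01, share 98% and 98.8%. Levels of these genes are uncertain. The sum is carried by mt-Co1, mt-Cytb, mt-Nd1, mt-Nd2, mt-Nd4 and mt-Nd5. Of these, mt-Co1 and mt-Nd4 share 51.1% and 62.2% of their windows, mt-Nd2 and mt-Nd5 8.19% and 7.61%, and mt-Cytb and mt-Nd1 0%. In turn, mt-Atp8 and mt-Nd6 share 0% and stood at only 59.7 and 87.9 CPM per kilobase. The part of shared sequence in the levels of the mitochondrially encoded genes was not tested.

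The citric acid cycle was above 0 in the same 3 libraries as complexes I and II. Its 17 genes were at 0.18 and 0.22 in baseline CTL, 0.27 and -0.33 in baseline butyrate, -0.10 and -0.06 in lesional CTL and -0.25 and -0.07 in lesional butyrate skin (median centred log2 CPM). With HDM in CTL mice 17 of 17 were below 0 (median -0.26) and 0 were called, and 7 of 17 were lower at an adjusted p under 0.1 without baseline butyrate replicate 3, against 20% of all genes. Citrate synthase, Cs, was at 633 and 616 CPM in baseline CTL, 599.8 and 484 in baseline butyrate, 507 and 507 in lesional CTL and 533 and 570.1 in lesional butyrate skin.

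Of 10 mitochondrial carriers and channels, 7 were below 0 with HDM in CTL mice (median -0.46) and 0 were called. Slc25a4, the ADP/ATP carrier of heart and muscle, was at 1051 and 1198 CPM in baseline CTL, 1227 and 386 in baseline butyrate, 577 and 671 in lesional CTL and 374 and 597 in lesional butyrate skin. Slc25a5, the carrier of other tissues, was at 223 and 203 CPM in baseline CTL, 207 and 447 in baseline butyrate, 374 and 325 in lesional CTL and 386 and 319.5 in lesional butyrate skin. The first was highest and the second lowest in baseline CTL skin and baseline butyrate replicate 1.

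Of 16 listed regulators of mitochondrial biogenesis, 14 were above 0 with HDM in CTL mice (median 0.15). With 3.58% of all genes called, 1 of the 16 was called, Ppargc1a, the coactivator that raises respiratory gene transcription. It was at 27.2 and 20.1 CPM in baseline CTL, 19.5 and 21.5 in baseline butyrate, 7.69 and 7.34 in lesional CTL and 6.87 and 12.6 in lesional butyrate skin. It fell by 1.66 on the log2 scale (adjusted p = 0.0676) in CTL mice, and its difference was -1.08 (adjusted p = 0.28) in butyrate mice. The 2 groups of lesional mice were below all baseline mice. Gabpa, a subunit of nuclear respiratory factor 2, was at 72.2 and 67.5 CPM in baseline CTL, 69.1 and 105 in baseline butyrate, 80.9 and 81.2 in lesional CTL and 77.9 and 72.6 in lesional butyrate skin. Pprc1, a relative of Ppargc1a, was at 53.4 and 50.1 CPM in baseline CTL, 46.9 and 82.6 in baseline butyrate, 92.02 and 94.2 in lesional CTL and 94.1 and 71.97 in lesional butyrate skin.

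The medians of the lists that follow are on the TMM scale and were not recomputed with library totals alone, under which the median of all genes moved to 0.11. Respiratory chain genes outside the name rule, 11 tested, had a median of 0.12 with HDM in CTL mice with 0 called, and 1 of them, Cyc1, cytochrome c1 of complex III, was at 169 and 185 CPM in baseline CTL, 194 and 136 in baseline butyrate, 199 and 175 in lesional CTL and 150.4 and 166 in lesional butyrate skin. Assembly factors outside the rule, 31 tested, had a median of -0.09 with 0 called. The 3 uncoupling proteins summed to 590 and 552 CPM in baseline CTL and 501 and 1593 in baseline butyrate skin. In lesional skin they summed to 669 and 591 CPM in CTL and 522 and 595 in butyrate mice. Ucp2 made up most of these sums. With HDM in CTL mice 1 of the 2 tested genes was above 0 and 1 below, with 0 called. Ucp3, the muscle form, was at 79.6 and 63.2 CPM in baseline CTL and 59.8 and 16.6 in baseline butyrate skin. In lesional skin Ucp3 was at 12.3 and 11.9 CPM in CTL and 6.06 and 17.2 in butyrate mice. Ucp1, the defining gene of brown fat, was at 0.278 CPM or less in every library. Glycolysis genes (15) had a median of -0.23 in CTL and 0.43 in butyrate mice, the latter -0.01 without baseline butyrate replicate 3, with 0 called in both over 8 mice. The 12 genes of the oxidative stress response had a median of -0.04 with 0 called. Mitochondrial ribosomal proteins (76 tested) had 57 above 0, a median of 0.11 and 0 called. Cytosolic ribosomal proteins (108 tested) had 101 above 0, a median of 0.29 and 0 called.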

How the data were processed

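RNA from skin of 8 mice was sequenced, and the authors deposited read counts per gene, made with STAR 2.5.2 on GRCm38 and featureCounts per the submitters' processing notes. The reverse-stranded table of protein-coding genes was used. Raw counts, 18004136 to 21085544 per library, were not normalised by the authors.

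Counts were scaled by TMM and tested with edgeR 4.0.16 (R 4.3.3), using a robust quasi-likelihood fit over all 4 groups after filterByExpr with a minimum of 10 counts, which left 15163 genes. Genes with a Benjamini-Hochberg adjusted p under 0.1 and a fold above 2 were called, and all p-values are two-sided. Adjustment ran over all tested genes. limma 3.58.1 (voom) and DESeq2 1.42.0 were alternatives, as were other scalings, filters and leaving out each library. The test was checked on simulated data in which all genes and groups had the same spread. No library stood apart there, so that check does not cover the effect of baseline butyrate replicate 3.

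Single values of 2 mice against 2 could not reach an exact permutation p below 0.333. The mice were housed under specific pathogen-free conditions, and how they were divided among cages is not given. The p-values set each difference against the spread between these libraries. Comparisons that share a group share its mice. Levels per kilobase used the length of 1 annotated transcript per gene. The members, the gene lists and the ribosomal lists added later were chosen with earlier results of these data known. Named genes were the core subunits, the isoform pairs, the highest and lowest gene of each complex and the 3 largest differences in each direction of each comparison.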

Additional observations from a re-analysis of the deposited data

How the results depend on the processing

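No member was called over all 8 mice by edgeR, limma-voom or DESeq2, with RLE size factors, with library totals alone or without a count filter. Fitting only the 4 mice compared gave 3 calls for HDM in CTL mice. The share of all genes called in that fit was not recorded, so this count has no background to be read against. Leaving out 1 library gave 0 to 3 calls for HDM in CTL mice, 0 to 2 in butyrate mice, 0 to 1 for butyrate in lesional skin, 0 to 4 in baseline skin and 0 to 3 for the difference of the effects, and the calls arose without a baseline butyrate library, whose removal also removes the spread of that group. Without replicate 1 of that group, 12.3%, 19.1%, 1.22%, 24.1% and 20.9% of all genes were called in the 5 comparisons, and without replicate 3, with genes filtered anew, 12.5%, 5.94%, 1.22%, 0% and 0%. The median over members was 0.017 for HDM in CTL mice with library totals alone. Over the fits without 1 library it ran from -0.15 to -0.07 for HDM in CTL mice, from -0.22 to 0.10 in butyrate mice, from -0.11 to -0.05 and from -0.24 to 0.053 for butyrate in lesional and baseline skin, and from -0.15 to 0.17 for the difference. For butyrate in baseline skin Cox8b turned to 0.0018 without baseline butyrate replicate 3 and was -1.63 without replicate 1. The level of complex IV moved to -0.035 and -0.031 in the baseline CTL libraries and 0.010 in baseline butyrate replicate 1 with library totals alone. With structural subunits only it was -0.035 in baseline CTL replicate 1 and -0.015 in baseline butyrate replicate 1. As a mean over genes it was 0.13 and 0.15 in baseline CTL, -0.037 in lesional CTL replicate 4 and -0.18 in lesional butyrate replicate 3. The cause of these shifts was not tested. Of 414 values of single genes under alternatives, 395 kept their direction and their side of the threshold. Over all genes DESeq2 called 1093, 698, 124, 58 and 37 genes in the 5 comparisons against 543, 53, 0, 0 and 0 by edgeR, and limma-voom called 578, 42, 1, 0 and 0. No paired analysis was made, because each library came from a different mouse.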
